A study of Mus musculus with 34 samples.

Results

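The distal convoluted tubule is the short stretch of nephron after the thick ascending limb, and 10 genes that build or regulate its salt, magnesium and calcium transport were followed here by name in kidneys of mice with polycystic disease. They were *Slc12a3*, *Pvalb*, *Trpm6*, *Trpv5*, *Calb1*, *Slc8a1*, *Wnk1*, *Wnk4*, *Stk39* and *Klhl3*, 10 of the 23509 genes in each count table. Polyadenylated kidney RNA had been sequenced from 34 mice of C57BL6 background on postnatal day (P) 28. *Pkd2*-KO mice (Pkhd1/cre;*Pkd2* F/F, spelled "Pdk2KO" in the labels) received PBS (n = 11) or 20 mg kg-1 of RGLS4326 (n = 11) under the skin on P10, P11, P12 and P19, and untreated wild-type, non-transgenic mice (UNT, n = 12) were the controls. The compound RGLS4326 is an oligonucleotide inhibitor of the microRNA miR-17. The promoter of *Pkhd1* drives Cre in epithelium of kidney tubules, so the whole-kidney libraries hold cells with and without the deletion, and UNT mice carried neither Cre nor an injection. No UNT group with an injection was analysed here, so genotype and injection cannot be told apart in comparisons with UNT. A group given a control oligonucleotide was not analysed either. In RGLS4326 against PBS, miR-17 inhibition and effects of any oligonucleotide therefore cannot be told apart.

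The cells of this segment take up sodium and chloride from the urine through the thiazide-sensitive cotransporter NCC, which *Slc12a3* encodes. NCC is switched on by phosphorylation. The kinases WNK1 and WNK4 activate SPAK (*Stk39*), SPAK phosphorylates NCC, and KLHL3, an adaptor of a cullin-3 ubiquitin ligase, marks WNK kinases for destruction. Magnesium enters the same cells through the channel TRPM6. Calcium enters in the later part of the segment and the connecting tubule through TRPV5, is carried in the cytosol by calbindin-D28k (*Calb1*) and leaves through the exchanger NCX1 (*Slc8a1*). Parvalbumin (*Pvalb*) is a calcium-binding protein of the early part of the segment.

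Because RGLS4326 acts on miR-17, the miR-17 sequence and its seed matches in these 10 genes are shown before the values. The mature sequence of mmu-miR-17-5p (RefSeq, GRCm38.p6, chr14:115043684-115043706, plus strand) follows with its seed, bases 2 to 8, in capitals.
mmu-miR-17-5p: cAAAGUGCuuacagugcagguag

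For each gene, the longest 3′UTR on a protein-coding transcript of GENCODE M21 (GRCm38) was searched on the strand of the transcript for GCACTTT (7mer-m8), CACTTTA (7mer-A1) and GCACTTTA (8mer, which holds both shorter matches). At least 1 of these was present in 4 of the 10 genes, and in 19.2% of the 19173 genes with a 3′UTR, whose lengths were not matched to those of the 10. No 8mer was found. The matches are printed in capitals with their flanks, and the positions are those of the capitals.
*Calb1*, 7mer-m8, chr4:15906081-15906087, plus strand: gttggatttaaGCACTTTttttcaattgt
*Klhl3*, 7mer-m8, chr13:58003900-58003906, minus strand: tctggccgttgGCACTTTgtgaggacggt
*Slc8a1*, 7mer-A1, chr17:81388169-81388175, minus strand: cctcctccgaaCACTTTAaacattacttg
*Slc8a1*, 7mer-A1, chr17:81382354-81382360, minus strand: atttctaaatcCACTTTAgcaaacattat
*Wnk1*, 7mer-A1, chr6:119925608-119925614, minus strand: acttattaagaCACTTTAactttttcctt
The 3′UTRs of *Slc12a3*, *Pvalb*, *Trpm6*, *Trpv5*, *Wnk4* and *Stk39* held none of these letters. A match is a description of the sequence and was not tested as a binding site.

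The libraries held 17603122 to 54981992 reads in genes. Levels are given as CPM, which are counts relative to library size after TMM scaling. *Pkd2* itself was at 219.6 to 337.7 CPM in UNT, 98.0 to 214.5 in PBS and 170.0 to 236.9 in RGLS4326 libraries, so no library lacked it. Of reads with a unique alignment, 12.9% to 14.9% fell in no gene in UNT libraries, 6.08% to 11.0% in PBS and 5.82% to 14.6% in RGLS4326 libraries, and PBS and UNT did not overlap in this share. Each deposited table carries a library number that starts again at 1 after the earlier libraries, which gave 3 library sets, each with mice of every group. Markers of the other cell types in a kidney also moved between groups. In PBS against UNT, 39.0% of all genes were lower and 43.1% were higher. Of the markers, 7 of 7 proximal tubule genes were lower. Higher were 7 of 7 principal cell genes of the collecting duct, 5 of 5 injury genes, 5 of 5 leukocyte genes and 5 of 5 fibroblast genes. The summed level of the proximal tubule list was 9591 to 13324 CPM in UNT, 1136 to 3212 in PBS and 2085 to 3537 in RGLS4326 libraries, and that of the fibroblast list was 561.7 to 1413 in UNT, 3259 to 6828 in PBS and 4162 to 6248 in RGLS4326 libraries. Other lists held genes in both directions, beside the 39.0% lower and 43.1% higher of all genes. Of 6 thick ascending limb genes 4 were lower and 2 higher, and of 6 intercalated cell genes 5 were lower and 1 higher. Of 5 podocyte genes 4 were lower and 1 higher, and of 5 endothelial genes 3 were lower and 2 higher. In RGLS4326 against PBS, where 15.3% of all genes were higher and 18.5% were lower, 5 of 7 proximal tubule, 4 of 5 podocyte and 4 of 5 endothelial genes were higher, and 4 of 7 principal cell, 2 of 5 injury, 2 of 5 leukocyte and 1 of 6 intercalated cell genes were lower. Of 6 thick ascending limb genes, 3 were higher and 1 was lower, and 0 of 5 fibroblast genes passed the test by edgeR, with 0 at an unadjusted p under 0.05. None of the genes on these lists was at 0 in every library of a group. The part of this shift in the results below was not tested, and in whole kidneys fewer cells of a type and less RNA per cell cannot be told apart.

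To ask how the distal genes stood in polycystic kidneys, PBS was compared with UNT. Of the 10 genes, 8 were lower and 2 were higher at an adjusted p under 0.05 in edgeR's quasi-likelihood test with Benjamini-Hochberg adjustment over 15644 genes, where 39.0% of all genes tested were lower and 43.1% were higher. The sodium chloride cotransporter, both WNK kinases, *Klhl3*, *Calb1*, *Slc8a1*, *Pvalb* and, by the smallest margin, *Trpm6* were lower, whereas *Trpv5* and *Stk39* were higher. The median log2 fold change was -1.59 over the 10 genes and 0.04 over all genes tested. The levels of PBS and UNT libraries did not overlap in 8 of the 10 genes, against 42.5% of all genes, and the exceptions were *Trpm6* and *Trpv5*.

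**Figure D1:**
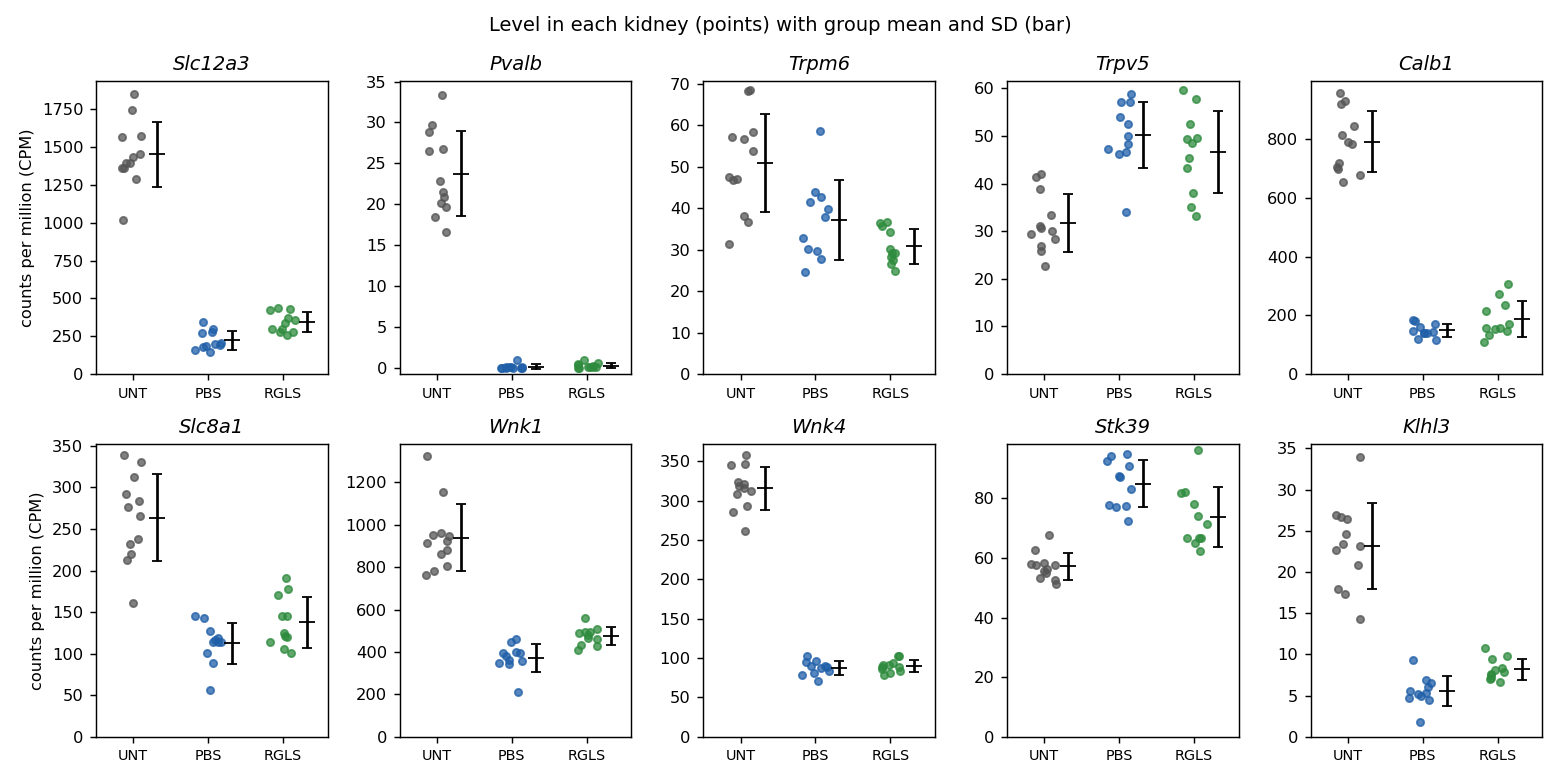
Level of each of the 10 genes in every kidney (1 point per mouse, CPM on a linear axis) in UNT (n = 12), PBS (n = 11) and RGLS4326 (RGLS, n = 11), with the group mean and SD as a bar. *Slc12a3* lies between 1021 and 1851 CPM in UNT and at no more than 440.0 CPM in any *Pkd2*-KO kidney, *Pvalb* lies near 0 in both *Pkd2*-KO groups, and *Trpv5* and *Stk39* are higher in *Pkd2*-KO kidneys.

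*Slc12a3* (chr8:94329201-94366214) had the lowest value, the median and the highest value at 1021, 1413 and 1851 CPM in UNT, 147.8, 201.7 and 341.5 CPM in PBS, and 256.5, 337.7 and 440.0 CPM in RGLS4326 libraries. Every *Pkd2*-KO kidney was below every UNT kidney, and every RGLS4326 library lay above the PBS median. *Slc12a3* was 6.50-fold lower in PBS than in UNT (log2 fold change -2.70, SE 0.13, edgeR adjusted p = 1.03e-19). Within the 3 library sets its log2 fold change was -3.02, -2.59 and -2.69.

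*Pvalb* (chr15:78191114-78206400) fell furthest. It had 371 to 1316 counts per library in UNT, with 16.5, 22.2 and 33.4 CPM as the lowest, median and highest levels. In PBS it had 0 counts in 6 of 11 libraries and 45 counts in all, of which 37 were in PBS replicate 7, and in RGLS4326 libraries it had 0 to 25 counts and 77 in all. The 1 PBS library with 37 counts, at 0.95 CPM, was the highest of all *Pkd2*-KO libraries, and every *Pkd2*-KO library was far below UNT. The fitted log2 fold change in PBS against UNT was -7.70 (SE 0.50, edgeR adjusted p = 2.16e-16), and -9.86 without PBS replicate 7. From summed counts the level was 23.8 CPM in UNT, 0.111 CPM in PBS and 0.0219 CPM in PBS without replicate 7. In library set 1 the 3 PBS libraries had 0 counts, so *Pvalb* was at least 801-fold lower there than in UNT, with a floor of 3 counts over that group. These counts cover sampling of reads only. Fast muscle and some neurons also make parvalbumin. The summed level of 8 muscle genes was 2.84 to 5.43 CPM in UNT, 1.08 to 4.51 in PBS and 0.907 to 2.01 in RGLS4326 libraries, and that of 5 neuron genes was 1.38 to 2.93, 1.45 to 3.06 and 1.77 to 2.54 CPM, so both sums were below the *Pvalb* level in every UNT kidney. Of the 3 muscle genes with enough counts to test, *Acta1* and *Actc1* were higher in PBS than in UNT (log2 fold changes 2.73 and 3.91) and *Myh6* was lower (-5.48). The other 5 had too few counts to test, with highest counts in any UNT library of 29 for *Myh1*, 12 for *Tnnt3*, 8 for *Ckm*, 1 for *Myh2* and 1 for *Myh4*. The part of muscle or neurons in the *Pvalb* counts was not tested.

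Among the genes of magnesium and calcium transport the changes differed in size and sign. *Trpm6* (chr19:18749983-18892511) had 31.3, 50.7 and 68.5 CPM as its lowest, median and highest level in UNT, 24.7, 37.9 and 58.6 in PBS and 24.9, 29.3 and 36.8 in RGLS4326 libraries. The groups overlapped widely, and the PBS value of 58.6 CPM came from PBS replicate 11, above most UNT kidneys. *Trpm6* was 1.36-fold lower in PBS (log2 fold change -0.45, SE 0.12, edgeR adjusted p = 0.00139). It did not pass the threshold in library set 2 alone (log2 fold change -0.32, edgeR adjusted p = 0.185), nor when the share of reads outside genes was added to the fit as a covariate (-0.37, edgeR adjusted p = 0.115), a covariate that stands partly for the group itself.

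*Trpv5* (chr6:41652173-41680769), the calcium entry channel, had 22.6, 30.3 and 42 CPM as its lowest, median and highest level in UNT, 34.1, 50.1 and 58.7 in PBS and 33.3, 48.5 and 59.7 in RGLS4326 libraries. It was 1.58-fold higher in PBS than in UNT (log2 fold change 0.66, SE 0.10, edgeR adjusted p = 3.69e-07), with an overlap between the groups that came from the single PBS replicate 9 at 34.1 CPM. Of the 10 genes, the other calcium carriers, *Calb1* and *Slc8a1*, moved the opposite way.

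*Calb1* (chr4:15881264-15908064) had 655.0, 787.2 and 956.2 CPM as its lowest, median and highest level in UNT, 116.0, 143.9 and 185.9 in PBS and 107.9, 158.3 and 305.7 in RGLS4326 libraries. It was 5.30-fold lower in PBS (log2 fold change -2.41, SE 0.13, edgeR adjusted p = 3.06e-18). *Slc8a1* (chr17:81373105-81738377), through which calcium leaves the cell, had 161.4, 271.5 and 338.4 CPM in UNT, 56.4, 114.6 and 145.1 in PBS and 100.9, 124.7 and 191.1 in RGLS4326 libraries. PBS and UNT kidneys did not overlap for either gene, and *Slc8a1* was 2.34-fold lower in PBS (log2 fold change -1.23, SE 0.13, edgeR adjusted p = 1.31e-10). Of the exon bases of *Slc8a1*, 1.62% overlap antisense genes of GENCODE M21 that are not in the count tables.

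The regulators of NCC also split. *Wnk4* (chr11:101260567-101277409), a WNK kinase of the distal nephron, had 261.8, 317.3 and 358.0 CPM as its lowest, median and highest level in UNT, 71.0, 88.8 and 102.5 in PBS and 79.0, 88.7 and 103.1 in RGLS4326 libraries. These were the tightest groups among the 8 genes that fell, and both *Pkd2*-KO groups covered nearly the same range, well below UNT. *Wnk4* was 3.60-fold lower in PBS (log2 fold change -1.85, SE 0.06, edgeR adjusted p = 1.89e-24). A stretch of 306 of its exon bases, 7.38%, overlaps an antisense gene.

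*Wnk1* (chr6:119923969-120038672) had 764.7, 919.1 and 1327 CPM in UNT, 209.2, 380.8 and 461.1 in PBS and 411.5, 479.8 and 562.4 in RGLS4326 libraries. It was 2.52-fold lower in PBS (log2 fold change -1.34, SE 0.10, edgeR adjusted p = 3.82e-15), and no *Pkd2*-KO kidney reached the UNT range. The count of *Wnk1* sums its full-length transcript, which many tissues use, and the shorter kidney transcript without the kinase domain, which is made in the distal convoluted tubule, so the 2 cannot be told apart here.

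*Klhl3* (chr13:58000228-58113592) had 14.3, 23.3 and 33.9 CPM in UNT, 1.85, 5.32 and 9.30 in PBS and 6.71, 7.81 and 10.7 in RGLS4326 libraries, all *Pkd2*-KO kidneys below all UNT kidneys. It was 4.18-fold lower in PBS (log2 fold change -2.06, SE 0.16, edgeR adjusted p = 1.66e-14). *Stk39* (chr2:68210445-68472268), the kinase SPAK, went the other way, at 51.3, 57 and 67.6 CPM in UNT, 72.4, 87.0 and 94.9 in PBS and 62.3, 71.3 and 96.1 in RGLS4326 libraries. Every PBS kidney was above every UNT kidney, and *Stk39* was 1.49-fold higher in PBS (log2 fold change 0.57, SE 0.06, edgeR adjusted p = 2.26e-10). With the covariate for reads outside genes, the log2 fold change was 0.29 for *Stk39* and -0.79 for *Slc8a1*, and both calls were kept. SPAK is not particular to the distal convoluted tubule and is also present in the thick ascending limb and elsewhere. PBS replicate 9 was the lowest *Pkd2*-KO library for *Slc8a1*, *Wnk1* and *Klhl3*, and without it their log2 fold changes in PBS against UNT remained called, with *Slc8a1* at -1.19 and *Klhl3* moved by less than 0.1 on the log2 scale.

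The order of levels among the 10 genes, which needs scaling by length, also differed between groups. Per kilobase of the longest protein-coding transcript in GENCODE M21, the median level in UNT was 328 CPM for *Slc12a3*, 186 for *Calb1*, 81.1 for *Wnk1*, 77.1 for *Wnk4*, 22.7 for *Pvalb*, 16.1 for *Stk39*, 14.7 for *Slc8a1*, 9.35 for *Trpv5*, 7.79 for *Trpm6* and 3.26 for *Klhl3*. The ranges of *Slc12a3* and *Calb1* over UNT kidneys did not overlap, nor did those of *Calb1* and *Wnk1*, *Wnk4* and *Pvalb*, or *Trpm6* and *Klhl3*, whereas the ranges of the other neighbours in this order did. In PBS the medians were 46.8 CPM per kilobase for *Slc12a3*, 34.1 for *Calb1*, 33.6 for *Wnk1*, 24.6 for *Stk39*, 21.6 for *Wnk4*, 15.4 for *Trpv5*, 6.21 for *Slc8a1*, 5.82 for *Trpm6*, 0.745 for *Klhl3* and 0 for *Pvalb*. The ranges of *Slc12a3*, *Calb1* and *Wnk1* then overlapped. The transcript used in each kidney is not known from gene counts, so these levels per length are approximate.

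To ask what RGLS4326 treatment changed, RGLS4326 was compared with PBS in the *Pkd2*-KO mice. *Slc12a3*, *Klhl3*, *Wnk1* and *Calb1* were higher and *Stk39* was lower, so 5 of the 10 genes were called, where 15.3% of all genes tested were higher and 18.5% were lower. The median log2 fold change was 0.31 over the 10 genes and 0.00 over all genes tested. The levels of the RGLS4326 and PBS groups overlapped in every one of the 10 genes, and over all genes only 0.0639% did not overlap.

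**Figure D2:**
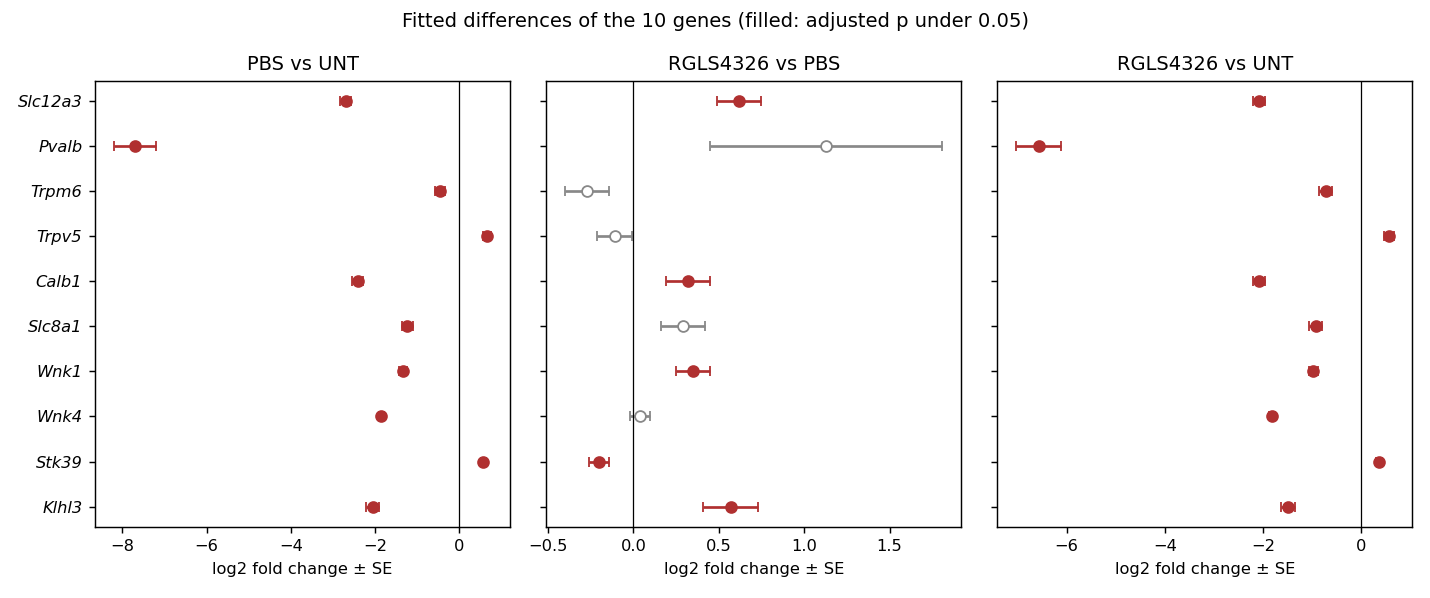
Log2 fold changes of the 10 genes with their SE in the 3 comparisons of the edgeR fit (each panel has its own horizontal scale). Filled points passed an adjusted p of 0.05: all 10 genes in both comparisons with UNT, and 5 in RGLS4326 against PBS.

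*Slc12a3* was 1.53-fold higher with RGLS4326 than with PBS (log2 fold change 0.62, SE 0.13, edgeR adjusted p = 0.00193). *Klhl3* was 1.48-fold higher (log2 fold change 0.57, SE 0.16, edgeR adjusted p = 0.00852), and *Wnk1* was 1.28-fold higher (log2 fold change 0.35, SE 0.10, edgeR adjusted p = 0.00832). Without PBS replicate 9, the lowest library of *Klhl3* and *Wnk1*, their log2 fold changes were 0.49 and 0.30 and both calls were kept. *Stk39* was 1.15-fold lower with RGLS4326 (log2 fold change -0.20, SE 0.06, edgeR adjusted p = 0.0162), and the *Stk39* level of RGLS4326 replicate 4, 96.1 CPM, was the highest of all libraries.

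*Calb1* was at the threshold, 1.25-fold higher with RGLS4326 (log2 fold change 0.32, SE 0.13, edgeR adjusted p = 0.0491). The highest *Calb1* level in *Pkd2*-KO kidneys, 305.7 CPM, was in RGLS4326 replicate 1, and without that library the log2 fold change was 0.23 (edgeR adjusted p = 0.131). The call on *Calb1* was kept in only 8 of the 22 fits that left out 1 library of the compared groups.

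The other 5 genes did not pass the test. For *Wnk4* the interval of the difference was narrow, at 0.04 on the log2 scale (95% interval -0.08 to 0.15, edgeR adjusted p = 0.645). The log2 fold change was -0.11 for *Trpv5* (95% interval -0.31 to 0.10, edgeR adjusted p = 0.423), -0.27 for *Trpm6* (-0.52 to -0.02, edgeR adjusted p = 0.0903) and 0.29 for *Slc8a1* (0.03 to 0.55, edgeR adjusted p = 0.0798), and these intervals are not adjusted for the number of genes. For *Pvalb* it was 1.13 (95% interval -0.20 to 2.45, edgeR adjusted p = 0.188), and 3.29 without PBS replicate 7 (edgeR adjusted p = 0.00136), so 1 library decided that call. *Pvalb* was called without that replicate and also by limma-voom on all libraries (log2 fold change 1.90, limma-voom adjusted p = 0.0349).

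Of the 4 genes with a miR-17 seed match printed above, 3 were higher with RGLS4326 (*Klhl3*, *Wnk1* and *Calb1*, the last at the threshold as given above) and *Slc8a1* did not pass the test, where 15.3% of all genes were higher. The share higher among all genes with a match was not counted here. Of the 6 genes without a match, *Slc12a3* was higher, *Stk39* was lower and 4 did not pass the test. The largest of the called increases was that of *Slc12a3*, which has no match.

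Within library sets the differences between RGLS4326 and PBS were less firm. *Slc12a3* had log2 fold changes of 0.94, 0.67 and 0.43 in library sets 1, 2 and 3, with edgeR adjusted p values of 0.0401, 0.0107 and 0.327. *Klhl3* had 0.76, 0.56 and 0.52 in the same order, and *Wnk1* had 0.43, 0.27 and 0.41. *Stk39* had -0.11, -0.31 and -0.23, so the sign was the same in each set for these 4 genes and also for *Calb1*, at 0.37, 0.48 and 0.19. By edgeR, 1 of the 10 genes was called in set 1, 4 in set 2 and 0 in set 3, where only *Pvalb* had an unadjusted p under 0.05. Over all genes, 0.343% were called in set 1, 25.5% in set 2 and 0.00% in set 3, where 2826 of 15676 genes had an unadjusted p under 0.05. Sets 1, 2 and 3 held 4, 3 and 4 RGLS4326 mice and 3, 4 and 4 PBS mice. In set 2 the share of reads outside genes was 13.86% to 14.59% in RGLS4326 and 6.537% to 10.96% in PBS libraries. The 2 groups did not overlap in this share in set 2, whereas they did in sets 1 and 3. The part of this share in the calls of set 2 was not tested. When the share of reads outside genes was added as a covariate, edgeR called 0 of the 10 genes and 0.927% of all genes in RGLS4326 against PBS. An unadjusted p under 0.05 was then left for 4 of them, *Slc12a3*, *Trpm6*, *Wnk1* and *Klhl3*. *Slc12a3* was at 0.42 on the log2 scale in that fit (edgeR adjusted p = 0.0685). *Klhl3* was at 0.47, *Wnk1* at 0.27, *Calb1* at 0.14 and *Stk39* at -0.09. These 5 genes kept their direction but not their call.

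**Figure D3:**
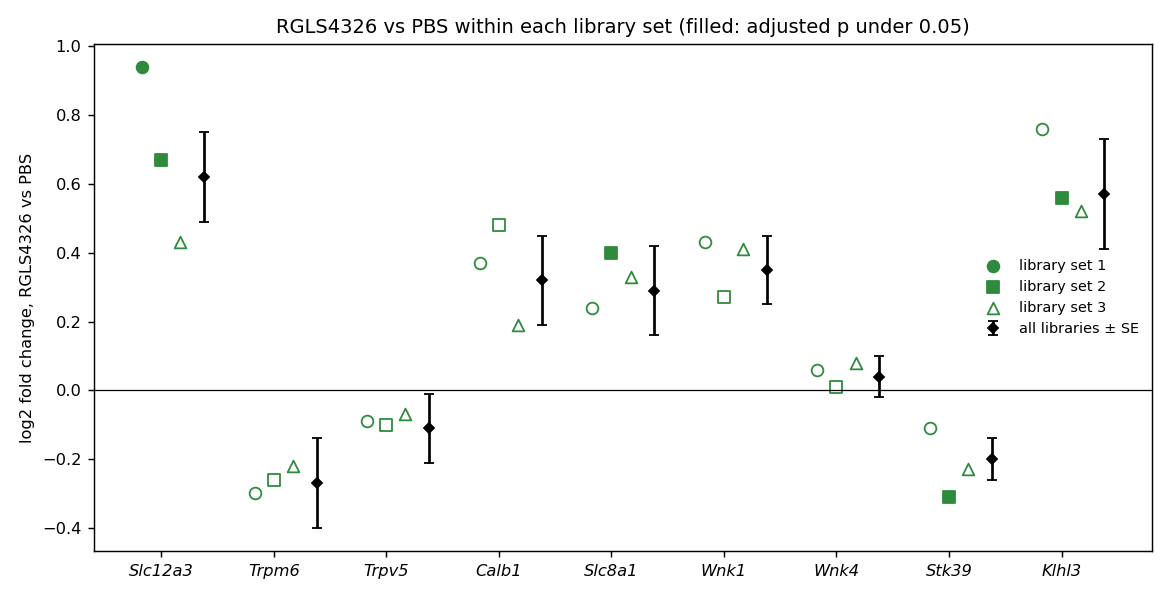
Log2 fold change of RGLS4326 against PBS in each library set alone (green symbols, filled at an adjusted p under 0.05) and in all libraries with its SE (black diamonds) for 9 of the genes. *Pvalb* is left out because its PBS libraries in set 1 had 0 counts. *Slc12a3* is above 0 in each set, from 0.43 to 0.94, and *Wnk4* lies between 0.01 and 0.08.

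RGLS4326-treated kidneys were still far from UNT. Of the 10 genes, 8 were lower and 2 were higher than in UNT, where 36.9% of all genes tested were lower and 40.8% were higher. The groups did not overlap in 6 of the 10 genes, against 36.7% of all genes, and the exceptions were *Trpm6*, *Trpv5*, *Slc8a1* and *Stk39*. *Slc12a3* was 4.24-fold lower than in UNT (log2 fold change -2.08, SE 0.13, edgeR adjusted p = 1.02e-16), *Wnk4* was 3.51-fold lower (-1.81, SE 0.06, edgeR adjusted p = 4.14e-24) and *Klhl3* was 2.82-fold lower (-1.49, SE 0.15, edgeR adjusted p = 5.57e-11). *Calb1* was 4.24-fold lower, *Wnk1* 1.98-fold lower, *Slc8a1* 1.91-fold lower and *Trpm6* 1.65-fold lower, while *Trpv5* was 1.47-fold and *Stk39* 1.29-fold higher. With the covariate for reads outside genes the log2 fold change of *Stk39* against UNT was 0.19 in place of 0.37, and its call was kept. The 3 comparisons share their groups, so these values are not independent of those above.

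To ask whether the genes moved by the same amount as the cotransporter, the log2 ratio of each gene to *Slc12a3* in the same kidney was tested with limma, which cancels the library scaling. In PBS against UNT, all 9 other genes were called, with 8 higher and *Pvalb* lower relative to *Slc12a3*, but 98.2% of all genes were called on this scale, so the count itself says little about them. *Calb1* stayed nearest to *Slc12a3*, with a log2 difference of 0.33 (SE 0.15, limma adjusted p = 0.0397), followed by *Klhl3* at 0.62 (SE 0.14, limma adjusted p = 4.19e-05) and *Wnk4* at 0.88 (SE 0.13, limma adjusted p = 6.60e-09). The call on *Calb1* was lost in library sets 2 and 3 alone (limma adjusted p = 0.275 and 0.52) and kept in only 10 of the 23 fits that left out 1 library. *Stk39* and *Trpv5* were furthest above, with log2 differences of 3.30 (SE 0.16) and 3.41 (SE 0.14).

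In RGLS4326 against PBS, 6 of the 9 genes were lower relative to *Slc12a3*, where 83.2% of all genes were called. *Slc12a3* itself was higher by 0.62 on the log2 scale, so a gene that did not move falls below it by about that much. *Wnk4*, for instance, was at 0.04 in its own fit. The count and the small p values below therefore hold the rise of *Slc12a3* and by themselves say little about the other genes. *Trpm6* was at -0.89 (SE 0.18, limma adjusted p = 4.15e-05), *Stk39* at -0.85 (SE 0.16, limma adjusted p = 3.39e-05), *Trpv5* at -0.76 (SE 0.14, limma adjusted p = 2.83e-05) and *Wnk4* at -0.60 (SE 0.13, limma adjusted p = 7.84e-05). *Calb1* (-0.37, limma adjusted p = 0.027) and *Slc8a1* (-0.34, limma adjusted p = 0.0333) were nearer, and their calls were lost in 5 and 7 of the 22 fits that left out 1 library. *Klhl3* did not move apart from *Slc12a3* beyond its error, with a log2 difference of 0.00 (95% interval -0.28 to 0.27), and *Wnk1* was at -0.27 (limma adjusted p = 0.0544). The *Wnk1* ratio was called with replicate number or library set added to the fit (limma adjusted p = 0.0446 and 0.0315). It was also called in 7 of the 22 fits that left out 1 library. In library set 3 alone, 0 of the 9 ratios were called by limma, and only that of *Stk39* had an unadjusted p under 0.05.

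In RGLS4326 against UNT, 8 of the 9 ratios were called, against 97.3% of all genes. The smallest of these was that of *Wnk4*, at 0.28 (limma adjusted p = 0.0305), and its call was lost in each library set alone and in 3 of the 23 fits that left out 1 library. The ratio of *Calb1* to *Slc12a3* was the exception, with a log2 difference of -0.05 (95% interval -0.35 to 0.25, limma adjusted p = 0.765).

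**Figure D4:**
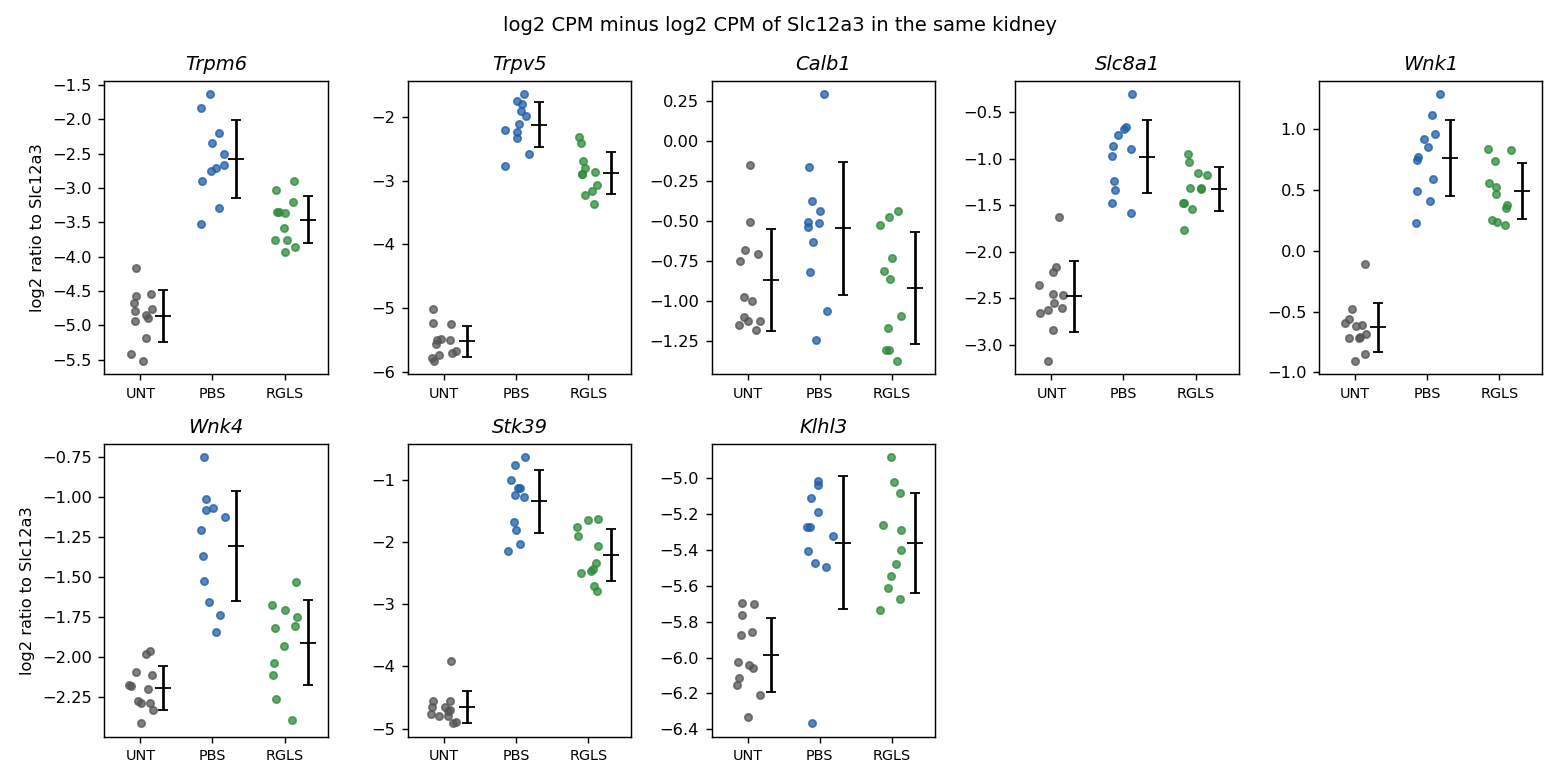
Log2 CPM of 8 genes minus log2 CPM of *Slc12a3* in the same kidney (1 point per mouse), with the group mean and SD as a bar, and a separate vertical scale for each gene. The *Calb1* ratio overlaps across the 3 groups. *Trpm6*, *Trpv5*, *Wnk1* and *Stk39* stand higher relative to *Slc12a3* in every *Pkd2*-KO kidney than in any UNT kidney. On this scale 97.5% of all genes were called higher in PBS against UNT.

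Other genes of the same pathways were taken from lists. Of 15 genes that regulate NCC or share its cells, 8 were lower and 3 were higher in PBS than in UNT, where 39.0% of all genes were lower and 43.1% were higher, and their median log2 fold change was -0.34. *Bsnd*, which encodes barttin, had a log2 fold change of -1.31 (SE 0.11). The basolateral potassium channel genes *Kcnj16* and *Kcnj10* were at -0.83 (SE 0.10) and -0.82 (SE 0.10). *Hsd11b2*, the enzyme that shields the mineralocorticoid receptor from glucocorticoids, was higher, at 1.42 (SE 0.15, edgeR adjusted p = 8.63e-11), beside the rise of the principal cell list. In RGLS4326 against PBS, 2 of the 15 were higher and 2 were lower, no larger a share than the 15.3% and 18.5% of all genes. *Wnk3*, a further WNK kinase, rose by 0.63 (SE 0.15) from levels near 1 CPM, *Hsd11b2* fell by 0.52 on the log2 scale, and *Cul3*, the cullin that works with KLHL3, rose by 0.27 (SE 0.08).

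Of 12 genes of distal magnesium handling, 8 were lower and 4 were higher in PBS than in UNT, with a median log2 fold change of -0.61, against the same 39.0% and 43.1% of all genes. *Egf*, the magnesium-regulating growth factor precursor of the distal tubule, had 2294, 2831 and 4992 CPM as its lowest, median and highest level in UNT, 27.8, 128.1 and 390.2 in PBS and 164.8, 313.7 and 469.8 in RGLS4326 libraries. It was lower in PBS (log2 fold change -4.43, SE 0.37, edgeR adjusted p = 2.19e-13) and higher with RGLS4326 than with PBS (1.09, SE 0.33, edgeR adjusted p = 0.0135). *Fxyd2*, a subunit of the sodium pump, was at -1.64 (SE 0.10) and *Pcbd1*, a pterin dehydratase, at -1.58 (SE 0.09) in PBS against UNT. *Trpm7*, the relative of *Trpm6* that most cells express, was at -1.42 (SE 0.14) in PBS against UNT and at 0.60 (SE 0.14, edgeR adjusted p = 0.00415) in RGLS4326 against PBS. The magnesium carrier gene *Slc41a1* was higher in PBS, at 0.80 (SE 0.07). In RGLS4326 against PBS, 4 of the 12 were higher and 1 was lower, against 15.3% and 18.5% of all genes.

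Of 10 further genes of distal calcium handling, 6 were lower and 3 were higher in PBS than in UNT, with a median log2 fold change of -1.09, against 39.0% and 43.1% of all genes. *Trpv6*, the close relative of *Trpv5*, had 1.38, 2.62 and 2.89 CPM in UNT, 29.0, 47.5 and 67.6 in PBS and 22.8, 31.4 and 57.9 in RGLS4326 libraries. No *Pkd2*-KO kidney came near the UNT range, and *Trpv6* was 18.6-fold higher in PBS (log2 fold change 4.21, SE 0.17, edgeR adjusted p = 8.28e-22). *Klk1*, the kallikrein of the connecting tubule, was at -2.46 (SE 0.11), *Kl*, which encodes klotho, at -2.35 (SE 0.13), the parathyroid hormone receptor gene *Pth1r* at -1.70 (SE 0.11) and the vitamin D receptor gene *Vdr* at -1.35 (SE 0.09). In RGLS4326 against PBS, 3 of the 10 were higher, against 15.3% of all genes, among them *Kl* (0.43, SE 0.12, edgeR adjusted p = 0.0105) and *Vdr* (0.24, SE 0.09, edgeR adjusted p = 0.0369), and *Trpv6* was lower (-0.43, SE 0.15, edgeR adjusted p = 0.0303). *Klk1*, *Kl*, *Pth1r* and *Vdr* are also made outside this segment.

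**Figure D5:**
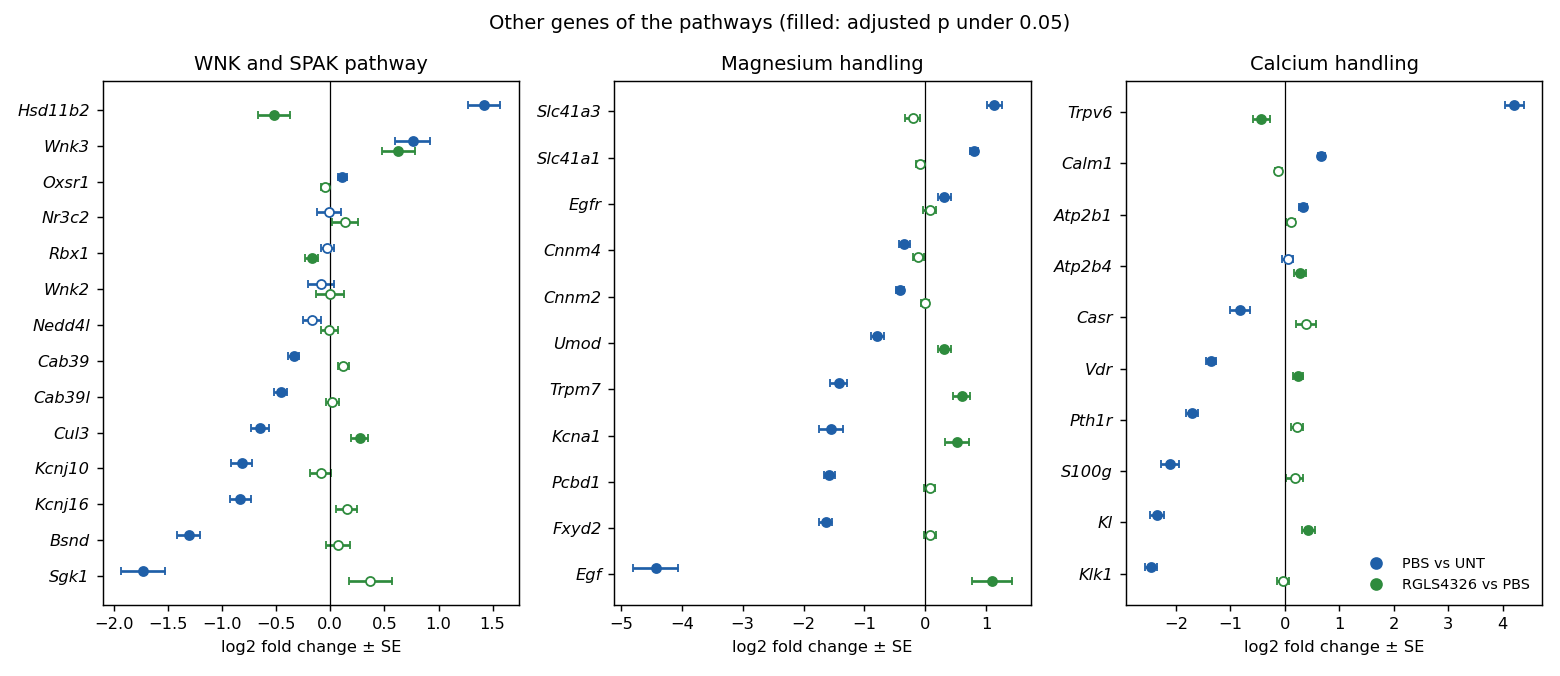
Log2 fold changes with SE of other genes of the WNK and SPAK pathway, magnesium handling and calcium handling (1 row per gene), in PBS against UNT (blue) and RGLS4326 against PBS (green), filled at an adjusted p under 0.05. *Trpv6* at 4.21 and *Egf* at -4.43 are the extremes in PBS against UNT.

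Within groups, the 10 genes varied together in part. After each group's mean was subtracted, the median Pearson r of log2 CPM over the 45 pairs of genes was 0.31 across 34 libraries, and 10 pairs were above 0.5. The highest were *Slc8a1* with *Wnk1* (r = 0.76), *Wnk1* with *Klhl3* (r = 0.73), *Calb1* with *Slc8a1* (r = 0.71) and *Slc12a3* with *Klhl3* (r = 0.69), and *Slc12a3* with *Stk39* was the lowest (r = -0.52). These are descriptions, since genes of 1 library share its depth, scaling and makeup of cells.

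Over all 15643 other genes, those with the pattern nearest to *Slc12a3* on this measure were *Clcn2* (r = 0.83), *Dlec1* (r = 0.79), *Fgfr3* (r = 0.77), *Insrr* (r = 0.77) and *Robo3* (r = 0.76). Of these, *Insrr* and *Robo3* also had log2 fold changes near that of *Slc12a3* in PBS against UNT, at -2.67 and -2.72. Nearest to *Wnk4* were *Skiv2l* (r = 0.72), *Nfrkb* (r = 0.68), *Hipk4* (r = 0.66), *Prrt1* (r = 0.66) and *Tigd3* (r = 0.65). In PBS against UNT, where *Wnk4* was at -1.85, *Skiv2l*, *Prrt1* and *Tigd3* were lower by less, at -0.52, -0.75 and -0.39. *Nfrkb* and *Hipk4* were not called there (edgeR adjusted p = 0.763 and 0.141). Nearest to *Trpv5* were *Slitrk4* (r = 0.74), *Samd5* (r = 0.72), *Lrrc8c* (r = 0.72), *C7* (r = 0.70) and *Kcnmb1* (r = 0.69). Each of these was higher in PBS than in UNT, as were *Trpv5* and 43.1% of all genes, with *Samd5* at a log2 fold change of 3.66. Among the 10 genes, *Wnk1* was nearest to *Trpv5* (r = 0.66).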

How the data were processed

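Stranded mRNA libraries were read by the authors as 75-base pairs, trimmed with TrimGalore, aligned to GRCm38 with STAR and counted per gene with HTSeq (version 0.6.1 in the submitters' processing notes). The annotation and strand setting of the counting are not given in the sources used here. They deposited raw counts per gene symbol, 1 table per mouse, neither normalized nor pooled. No pair of tables was identical (0 pairs). Levels were computed here as TMM-scaled CPM.

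The filter filterByExpr kept 15644 genes, all 10 genes described here among them. The 34 libraries entered 1 edgeR (version 4.0.16, R version 4.3.3) quasi-likelihood fit with 3 groups and no covariate. Tests were two-sided, p was adjusted by Benjamini-Hochberg over all genes tested, and genes were called under 0.05. SE is the log2 fold change divided by the root of its F statistic, and intervals are 1.96 SE to each side. Ratios to *Slc12a3* were tested with limma (version 3.58.1, trend) on log2 CPM with a prior count of 2. Both procedures were tested on simulated data. The replicates are separate mice. All 11 PBS libraries in the labels were used, more than the study's own legend counts.

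From each pathway list up to 5 genes with the smallest p in PBS against UNT and up to 3 in RGLS4326 against PBS were named, and for likeness the 5 nearest genes of *Slc12a3*, *Wnk4* and *Trpv5*. *Trpv6* and *Egf* levels are shown because they were the extremes. The 10 genes and all lists were chosen with earlier results of these data known. Some genes of the lists are counted but not reported here by name. *Adgre1* of the leukocyte list is not in the tables. Lists of muscle and neuron genes had 3 of 8 and 3 of 5 genes tested. Alternatives were other scalings, DESeq2 (version 1.42.0), limma-voom, other filters, a replicate block, library sets, a covariate for reads outside genes and leaving out each library.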

Additional observations from a re-analysis of the deposited data

How the results depend on the processing

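In PBS against UNT and in RGLS4326 against UNT, 9 or 10 of the 10 genes were called in every alternative run, and 10 in each fit that left out 1 library. In RGLS4326 against PBS, 5 genes were called, 4 to 6 when 1 library was left out, 1 in library set 1 alone, 0 in library set 3 alone and 0 when the share of reads outside genes was a covariate, where 54, 0 and 145 of all genes tested were called. The calls of *Slc12a3*, *Klhl3*, *Wnk1* and *Stk39* were kept when any 1 library was left out, and that of *Calb1* was lost in 14 of 22 such fits and under RLE and upper quartile scaling, limma-voom, no filter, a fit of the 2 groups alone and the replicate block. The sign changed for *Pvalb* in set 2 alone (log2 fold change -1.19) and for *Wnk4* with the covariate (-0.01), neither of them called, and the cause was not tested.

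Relative to *Slc12a3*, 9 genes were called in PBS against UNT (8 to 9 when 1 library was left out), 6 in RGLS4326 against PBS (4 to 8, and 0 in set 3 alone) and 8 in RGLS4326 against UNT (7 to 8). Uncalled ratios that changed sign were *Pvalb* in set 2 alone (-0.63), *Klhl3* in set 3 alone (0.24) and with a prior count of 0.5 (0.00), all in RGLS4326 against PBS, and *Calb1* against UNT in set 2 alone (0.01). With 1 library left out the *Klhl3* ratio ranged from -0.10 to 0.03 and the *Calb1* ratio from -0.09 to 0.02.

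Whether equal replicate numbers mark paired mice is not given in the labels. Deviations of libraries with the same number in different groups had a median correlation of -0.019 over 33 pairs (-0.329 to 0.412). The median was also near 0 for libraries of the same library set (0.0171), so this measure cannot settle the question. With the replicate block, 8 genes were called relative to *Slc12a3* in PBS against UNT, without *Calb1* (limma adjusted p = 0.0536), 4 genes were called in RGLS4326 against PBS, without *Calb1* (log2 fold change 0.29, edgeR adjusted p = 0.0976), and 10 in both comparisons with UNT. Depth limits *Pvalb* in *Pkd2*-KO kidneys, where most libraries had few or no counts.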
